A study of Arabidopsis thaliana with 6 samples.

Results

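The genes described here encode the enzymes and regulators that take glutamate-derived tetrapyrroles to chlorophyllide in Arabidopsis thaliana, measured in seedlings kept for 5 days in darkness. The set was fixed by locus and holds 10 genes, all present among the 38064 genes of the count table. They are the protochlorophyllide oxidoreductases PORA (AT5G54190), PORB (AT4G27440) and PORC (AT1G03630), the glutamyl-tRNA reductase HEMA1 (AT1G58290), its inhibitor FLU (AT3G14110), the magnesium chelatase subunits CHLH (AT5G13630), CHLI1 (AT4G18480) and CHLD (AT1G08520), the chelatase activator GUN4 (AT3G59400) and the magnesium-protoporphyrin methyltransferase CHLM (AT4G25080). RNA sequencing compared 3 libraries of the wild type Col-0 with 3 libraries of the double mutant bdh1-1 bdh2-1, both grown on MS plates in the dark. The mutant carries alleles of 2 genes for BCL-domain homolog proteins, which the series title places in SWI/SNF chromatin remodelling complexes. The labels do not say what kind of alleles these are, how many seedlings made a library, or whether the replicates came from separate plantings, so p-values measure the spread between these libraries only.

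In flowering plants the step from protochlorophyllide to chlorophyllide needs light, because the POR enzymes are driven by it. A seedling in darkness therefore accumulates protochlorophyllide bound to POR and NADPH in the prolamellar bodies of its etioplasts, and holds back the start of the pathway, where HEMA1 makes the precursor of 5-aminolevulinic acid and FLU inhibits the HEMA1 enzyme. Magnesium chelatase, built of the CHLH, CHLI and CHLD subunits and stimulated by GUN4, directs protoporphyrin into the chlorophyll branch rather than the heme branch. PORA is known as the form of etiolated tissue, PORB as a form present in darkness and in light, and PORC as a form of light-grown tissue.

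Library totals lay between 40876788 and 44982000 counts. The first principal component of log2 CPM held 58.7% of the variance and separated the genotypes. AT4G22320 and AT5G55210, taken as the BDH loci although neither the tables nor the annotation pairs them with that name, had 143 to 169 and 575 to 755 counts in the wild-type libraries. They had 8 to 15 and 7 to 22 counts in the mutant libraries. The labels name whole seedlings and the design text hypocotyls. The libraries held root transcripts, with the Casparian strip gene CASP1 at 6762 to 11190 counts, and transcripts of the cotyledon and leaf polarity gene FIL at 1024 to 1326 counts. Among the 9 root markers, 6 were above 3 counts in every library, and all 4 YABBY markers were. Levels are in CPM, counts per 1000000 counts of a library after scaling by TMM factors. Values of 3 libraries stand in the order of replicates 1, 2 and 3. Fold changes are mutant over wild type with edgeR's quasi-likelihood test. A change was called at a Benjamini-Hochberg adjusted p under 0.05 over the 20791 genes that passed the filter on low counts.

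The sequences upstream of PORA and PORB are shown first because these are the members that rose. Each run below is the 180 bases before the annotated gene start, read 5′ to 3′ on the gene's strand from the RefSeq assembly TAIR10.1 and its annotation (PORA chr5:21992815-21992994, minus strand, and PORB chr4:13725366-13725545, plus strand). Capitals mark any match on either strand to the motifs CACGTG (the G-box), CACATG, AAATATCT (the evening element), GATAAG and CCAATC.
PORA: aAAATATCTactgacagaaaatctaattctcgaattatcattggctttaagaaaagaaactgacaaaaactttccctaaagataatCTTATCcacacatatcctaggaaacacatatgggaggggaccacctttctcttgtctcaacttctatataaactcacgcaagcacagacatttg
PORB: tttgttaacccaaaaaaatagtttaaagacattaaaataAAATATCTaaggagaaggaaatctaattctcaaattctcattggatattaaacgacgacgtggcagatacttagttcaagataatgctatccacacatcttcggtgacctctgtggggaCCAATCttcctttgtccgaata

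The evening element, a motif bound by clock proteins, began at position -179 of PORA and -141 of PORB, counted back from -1, the base before the gene start. Over the 250 bases upstream of 27443 protein-coding genes on the nuclear chromosomes, 4.79% held AAATATCT on either strand. None of the other 8 members held it in that window. The longest run common to both windows was AAATCTAATTCTC, 13 bases that began at position -162 of PORA and -123 of PORB and that 3 of the 27443 windows held. The 3 include the windows of PORA and PORB themselves, and this run was chosen after the sequences were seen. CACGTG, present in 6.49% of all windows, was in none of the 10 members' windows, and CCAATC, present in 10.2%, was in those of PORB and GUN4. A match is a description of the letters only. The coding sequences of PORA and PORB were identical at 83.3% of 1206 aligned bases, against 73.3% for PORA and PORC and 73.5% for PORB and PORC. Apart from stretches where annotated genes overlap, no member matched another locus over 100 bases at 95% identity or more.

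PORA and PORB, the reductase genes whose transcripts are known from etiolated tissue, were higher in the mutant. PORA had 506.2, 545.7 and 607.4 CPM in the wild type, and 926.4, 1211.9 and 712.6 CPM in the mutant. Every mutant library was above every wild-type library, and the mutant libraries were spread more widely. The mean of PORA rose from 553.1 ± 51.0 CPM in the wild type to 950.3 ± 250.5 CPM in the mutant (SD, n = 3 each), or 1.72-fold (log2 fold change 0.78, SE 0.174, edgeR adjusted p 0.0126). PORB had 606.6, 624.9 and 695.3 CPM in the wild type and 1092.9, 1364.9 and 855.5 CPM in the mutant, again with no overlap. The mean of PORB rose from 642.3 ± 46.8 CPM to 1104.5 ± 254.9 CPM (SD, n = 3 each), also 1.72-fold (log2 fold change 0.78, SE 0.159, edgeR adjusted p 0.00862). Among all tested genes 23.5% were called, 12.1% as higher, and 41.3% had groups that did not overlap, 20.8% with the mutant above. In bulk RNA, more cells of a type and more RNA per cell cannot be told apart. The call of PORA was lost without wild-type replicate 1 (edgeR adjusted p 0.0537) and without mutant replicate 1 (0.0506), while PORB kept its call in each of the 6 fits without a library, with adjusted p values up to 0.0415. PORB overlaps AT4G27450 on the opposite strand over 71 exonic bases, 4.33% of its exonic length. AT4G27450 was itself higher in the mutant, from 445.2 ± 29.3 to 590.6 ± 73.2 CPM (SD, n = 3 each, edgeR adjusted p 0.0307), and its part in the PORB counts was not tested.

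PORC, the form of light-grown tissue, was a minor transcript and was not called. It had 20.2, 17.0 and 22.2 CPM in the wild type and 24.9, 34.8 and 19.9 CPM in the mutant. Mutant replicate 3 lay within the wild-type range and the other mutant libraries above it. The log2 fold change was 0.42 (SE 0.186, edgeR adjusted p 0.123). Among the alternatives run, it passed the threshold only without mutant replicate 3, at 0.60 on the log2 scale (edgeR adjusted p 0.0323), and was 0.18 without mutant replicate 2.

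The balance between PORA and PORB overlapped between the 2 genotypes, as the plot of ratios within each library shows. Per exonic kilobase, the PORA level was 0.825, 0.863 and 0.864 of the PORB level in the wild type and 0.838, 0.878 and 0.823 in the mutant, and these ranges overlap. PORA made up 45.3% ± 0.702 of the summed POR level per kilobase in the wild type and 45.3% ± 0.789 in the mutant (SD, n = 3 each). PORC made up 1.65%, 1.32% and 1.55% in the wild type and 1.12%, 1.23% and 1.16% in the mutant. The PORC shares did not overlap, with the mutant lower. In a two-sided exact permutation test its p was 0.1, the smallest that 3 libraries against 3 allow, and 0.3 after adjustment over the 3 shares. The shares of PORA and PORB had an exact permutation p of 1.0 and 0.8. All POR counts together were 0.114% to 0.137% of a wild-type library and 0.153% to 0.269% of a mutant library.

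**Figure D1:**
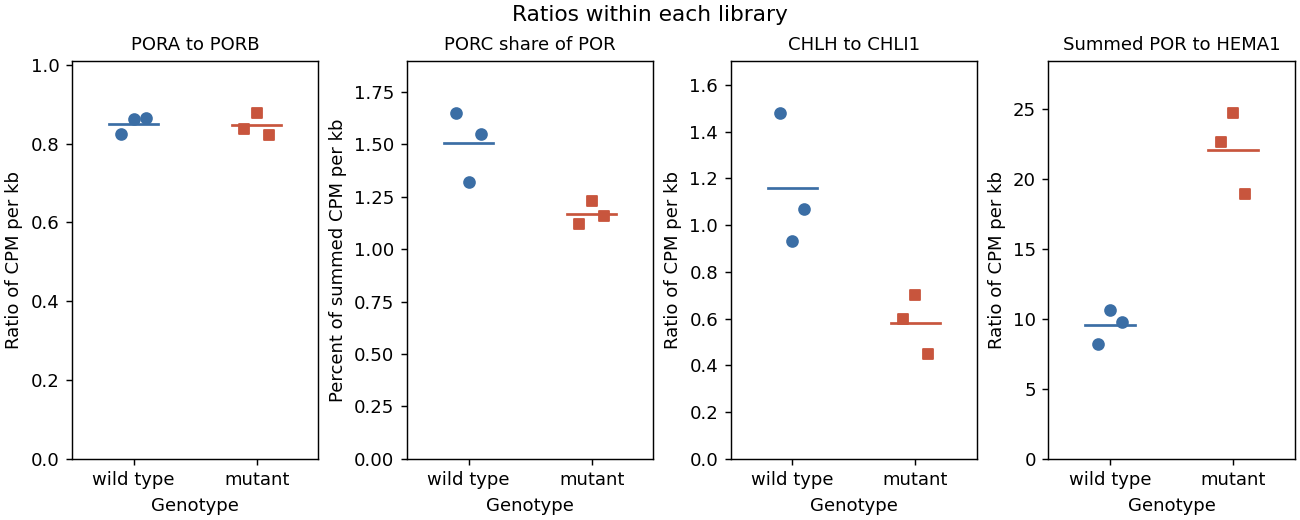
Ratios computed within each library from CPM per exonic kilobase, with 3 wild-type libraries (circles) and 3 mutant libraries (squares) and a line at each mean. The PORA to PORB ratio overlaps between genotypes at 0.823 to 0.878, the PORC share of the summed POR level is 1.32% to 1.65% in the wild type and 1.12% to 1.23% in the mutant, and the CHLH to CHLI1 and summed POR to HEMA1 ratios do not overlap.

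At the start of the pathway, HEMA1 went the opposite way. HEMA1, which encodes the reductase of the first committed step, had 193.1, 156.3 and 189.5 CPM in the wild type and 126.9, 147.9 and 117.9 CPM in the mutant. All 3 mutant libraries lay below the wild-type range. The mean of HEMA1 fell from 179.6 ± 20.3 CPM in the wild type to 130.9 ± 15.4 CPM in the mutant (SD, n = 3 each), to 0.729 of the wild-type level (log2 fold change -0.46, SE 0.118, edgeR adjusted p 0.022). Over all tested genes 11.3% were called as lower, and 20.5% had every mutant library below the wild type. HEMA1 did not pass the threshold without wild-type replicate 1 (edgeR adjusted p 0.0783), without wild-type replicate 3 (0.0791), without mutant replicate 1 (0.104) or without mutant replicate 3 (0.0702), and its log2 fold change stayed between -0.55 and -0.38 across those fits and the other 2 fits that left out a library. FLU, whose protein inhibits the HEMA1 enzyme in the dark, had 67.2, 58.0 and 67.7 CPM in the wild type and 65.3, 70.2 and 62.0 CPM in the mutant. The groups overlapped, and the log2 fold change of FLU was 0.03 (SE 0.0962, edgeR adjusted p 0.823). The summed POR level per kilobase was 8.21, 10.6 and 9.78 times that of HEMA1 in the wild type and 22.6, 24.7 and 18.9 times in the mutant. This ratio was chosen after its values were seen and is given without a test. The trend of fold change with exonic length, described below for CHLH, acts on it in the same direction. The fitted length offsets, mutant minus wild type on the log2 scale, were 0.051 for PORA, 0.055 for PORB and -0.081 for HEMA1.

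None of the magnesium chelatase subunits was called, and their log2 fold changes had both signs. CHLH, the large subunit that binds porphyrin, had 454.7, 260.0 and 355.8 CPM in the wild type and 213.5, 307.6 and 148.8 CPM in the mutant. It varied widely within both genotypes, and mutant replicate 2 was above wild-type replicate 2. The log2 fold change of CHLH was -0.68 (SE 0.256, edgeR adjusted p 0.0798). It passed the threshold as lower without wild-type replicate 2 (log2 fold change -0.85, edgeR adjusted p 0.0309), without mutant replicate 2 (-0.98, adjusted p 0.0183) and with no filter on low counts (-0.68, adjusted p 0.0472). CHLH has the longest exonic sequence of the set, 4757 bases, and across 16873 genes the log2 fold change was lower for longer exonic sequence (Spearman correlation -0.398, genes not being independent). With the length trend taken out by library, the log2 fold change of CHLH was -0.40 (edgeR adjusted p 0.155).

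CHLI1, an ATPase subunit, had 104.2, 94.4 and 112.2 CPM in the wild type and 120.7, 148.7 and 111.9 CPM in the mutant. Only mutant replicate 3 lay within the wild-type range, and the log2 fold change was 0.30 (SE 0.12, edgeR adjusted p 0.0991). CHLD, the subunit that joins the ATPase ring to CHLH, had 130.8, 102.6 and 120.9 CPM in the wild type and 100.9, 119.8 and 74.1 CPM in the mutant. The groups overlapped, and CHLD stood at -0.27 on the log2 scale (SE 0.163, edgeR adjusted p 0.257), or -0.14 with the length trend taken out. Per kilobase, the CHLH level was 1.48, 0.931 and 1.07 times that of CHLI1 in the wild type and 0.598, 0.699 and 0.449 times in the mutant. The CHLD level was 0.656 to 0.764 of CHLI1 in the wild type and 0.403 to 0.508 in the mutant. Neither ratio overlapped between genotypes. Both were chosen after their values were seen and carry no test, and the length trend acts on them in the same direction. CHLM, which methylates the product of the chelatase, was level, with 248.0 to 283.7 CPM in the wild type and 247.7 to 283.1 CPM in the mutant (log2 fold change 0.02, SE 0.0973, edgeR adjusted p 0.905).

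GUN4 could not be judged from these counts. It had 3, 8 and 6 counts in the wild type and 7, 9 and 6 counts in the mutant, and it was the 1 member that did not pass the filter on low counts. In the reference annotation 946 of its 1296 exonic bases, 73.0%, also belong to exons of GCN2, a protein kinase gene on the opposite strand. Among 347 protein-coding genes with 60 to 90% of their exonic bases overlapped by a gene on the opposite strand, the median wild-type level was 0.0151 CPM and 15.6% reached 1 CPM. Among 21389 protein-coding genes overlapped by under 1%, the median was 5.22 CPM and 63.7% reached 1 CPM. How reads in such overlaps were assigned is not given in the sources used here, so the level of GUN4 is not read as a low level of its transcript.

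**Figure D2:**
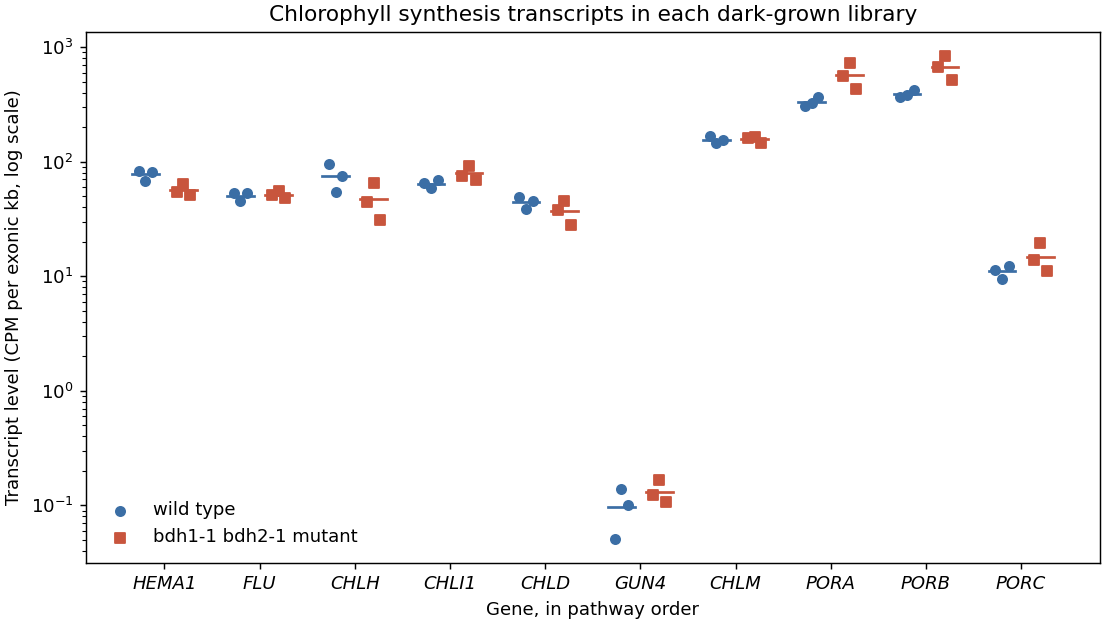
Transcript level of each of the 10 genes in each library, as CPM per exonic kilobase on a log axis, in pathway order, with a short line at each group mean. PORA and PORB sit highest, all their mutant libraries above their wild-type libraries, HEMA1 is lower in every mutant library, and GUN4 lies near 0.1 in both genotypes.

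Levels per kilobase ordered the set as follows. In the wild type PORB came first with 391.4 ± 28.5 CPM per kilobase and PORA next with 333.2 ± 30.7 (SD, n = 3 each), the 173rd and 213th highest of 37884 genes. CHLM followed with 155.0 ± 10.5. HEMA1 (77.7 ± 8.77), CHLH (75.0 ± 20.5) and CHLI1 (64.4 ± 5.54) overlapped one another, as did FLU (50.5 ± 4.31) and CHLD (44.7 ± 5.42). PORC stood at 11.1 ± 1.47 CPM per kilobase, and the PORB level was 32.7 to 40.1 times that of PORC in the wild-type libraries and 42.7 to 47.9 times in the mutant libraries. In the mutant the first 3 places were again PORB (673.0 ± 155.3), PORA (572.5 ± 150.9) and CHLM (157.1 ± 10.7), while CHLH (46.9 ± 16.8) was below CHLI1 (79.1 ± 11.9) in mean level.

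Of the 9 members tested, 3 were called, 2 higher and 1 lower, which is 33.3% against 23.5% of all tested genes. The median log2 fold change of the 9 was 0.03, against 0.0 over all tested genes, and 3 of the 9 had groups that did not overlap, a lower share than the 41.3% of all tested genes. DESeq2, which called 25.1% of all genes, called the same 3. With the length trend taken out, where 20.1% of all genes were called, the same 3 passed, PORA at a log2 fold change of 0.73 (edgeR adjusted p 0.0146), PORB at 0.73 (0.0105) and HEMA1 at -0.38 (0.0316). The authors' deposited table lists PORA at 0.71 on the log2 scale (adjusted p 9.58e-05). PORB stands at 0.73 (1.76e-05) and HEMA1 at -0.42 (0.00301) in the authors' deposited table, where 24.0% of genes were called and the other 7 members, GUN4 included, had an adjusted p of 0.0921 or more. That table comes from the same libraries. Its log2 fold changes were nearer 0 than those of edgeR for all 9 tested members. The gap was widest for CHLH, at -0.31 in the deposited table and -0.68 with edgeR, and its reason was not tested.

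**Figure D3:**
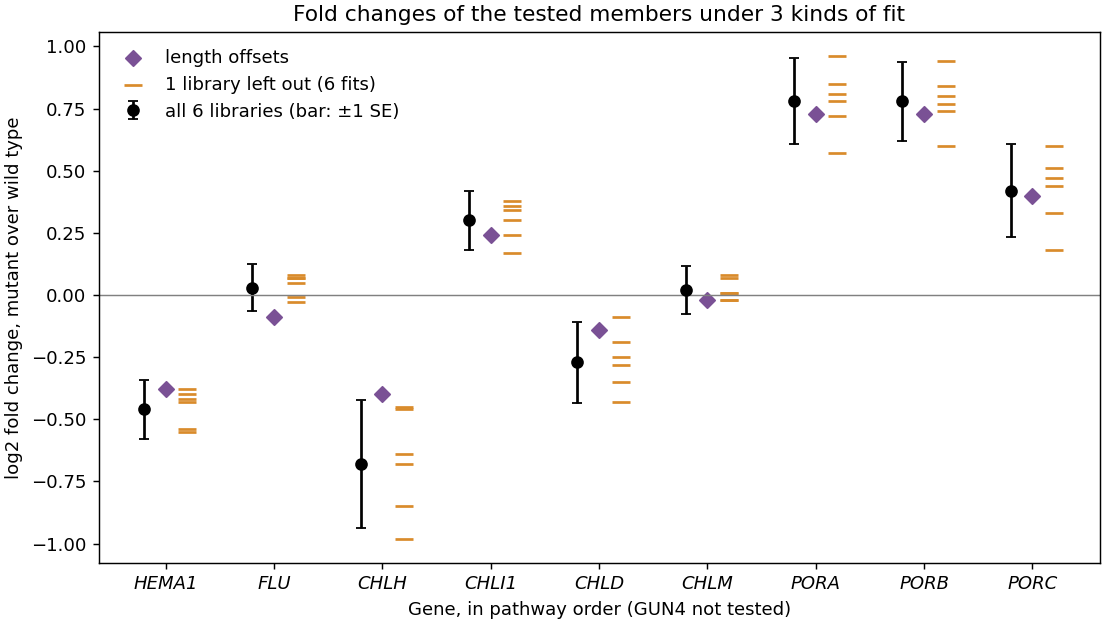
Log2 fold change, mutant over wild type, of the 9 tested genes with all 6 libraries (points with bars of 1 SE), with offsets for exonic length (diamonds) and with each library left out in turn (dashes, 6 fits). PORA and PORB stay between 0.57 and 0.96 and HEMA1 between -0.55 and -0.38, while CHLH runs from -0.98 to -0.40.

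The members shared 1 pattern within the mutant group. In all 9 tested members mutant replicate 2 was the highest of the mutant libraries and mutant replicate 3 the lowest. Over all tested genes mutant replicate 2 was highest for 37.4% and mutant replicate 3 lowest for 37.5%. Among the other 41 tested pathway genes these shares were 65.9% and 78.0%. In the wild type, replicate 2 was the lowest library for 7 of the 9 members, against 37.9% of all tested genes and 65.9% of the other pathway genes. The summed root markers were highest in the 2 libraries where most members were lowest, with 332.4 CPM in wild-type replicate 2 against 248.2 and 265.1 in replicates 1 and 3, and 379.6 CPM in mutant replicate 3 against 288.4 and 278.0 in replicates 1 and 2. CASP1 and its homolog CASP2 made up most of these sums, with 214.7 and 94.6 CPM in wild-type replicate 2 and 258.9 and 98.9 CPM in mutant replicate 3. Among the other root markers, WOX5, EXPA7 and EXPA18 were also highest in wild-type replicate 2 and mutant replicate 3, at no more than 53 counts. Of these 2 libraries, COBL9 was the highest of its group only in mutant replicate 3, and PLT1 only in wild-type replicate 2. MYB36 and PLT2 did not share that order. MYB36, a regulator of the endodermis, was lowest in wild-type replicate 2 and highest in mutant replicate 2, at 22.2 CPM against 18.6 and 19.7. PLT2, a root meristem gene with 2 to 22 counts, was lowest in wild-type replicate 2 and mutant replicate 3. The summed YABBY markers were lowest in the same libraries, at 76.4 CPM against 89.5 and 83.0 in the wild type and at 86.0 CPM against 95.1 and 92.2 in the mutant. In the mutant the low sum of replicate 3 came mostly from YAB3, with 48.6, 48.8 and 42.5 CPM. YAB2 (9.18, 8.23 and 8.19) was also lowest there, close to its value in replicate 2. FIL (30.2, 27.9 and 28.1) was lowest in mutant replicate 2, and YAB5 (7.06, 7.21 and 7.27) was highest in mutant replicate 3. The root hair markers EXPA7 and EXPA18 had 0 to 53 and 0 to 20 counts, both with 0 in wild-type replicate 3. The part of organ composition in the members' values was not tested. Between genotypes the summed root markers overlapped (248.2 to 332.4 CPM against 278.0 to 379.6 CPM), as did the YABBY markers (76.4 to 89.5 against 86.0 to 95.1). edgeR called 0 of 8 tested root markers, against 23.5% of all tested genes. Of the 8, 1 (PLT2) had an unadjusted p under 0.05, as did 8044 of the 20791 tested genes. COBL9, EXPA7, WOX5, PLT1 and PLT2 had at most 53 counts in any library and SEs of 0.382 to 1.03. Only a large difference in these genes could be called. Among the 4 YABBY markers, YAB5 was called as higher (log2 fold change 0.43, edgeR adjusted p 0.0319), or 25.0% against the same 23.5%.

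The rest of the tetrapyrrole pathway was described from 4 lists with 44 genes, of which 41 were tested and HEMA3, HEMB2 and HO3 were not. Of the 41, 8 were called, 5 higher and 3 lower, which is 19.5% against 23.5% of all tested genes, and their median log2 fold change was 0.1. With upper-quartile factors 10 were called, 8 higher and 2 lower. In the trunk from glutamate to protoporphyrin 3 of 14 tested genes were called. GSA1, an aminomutase that completes 5-aminolevulinic acid, rose from 49.0 ± 2.24 CPM in the wild type to 61.8 ± 0.812 CPM in the mutant (SD, n = 3 each), 0.34 on the log2 scale (edgeR adjusted p 0.0177), and HEME2, a uroporphyrinogen decarboxylase, rose by 0.36 on the log2 scale (0.0245), a call lost with the length trend taken out (0.29, edgeR adjusted p 0.0596). HEMF2, annotated as a coproporphyrinogen oxidase gene, was lower, at -0.53 on the log2 scale (0.0378), with groups that overlapped. HEMA2, the second glutamyl-tRNA reductase gene, was at -0.17 and not called (edgeR adjusted p 0.304).

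In the rest of the chlorophyll branch 1 of 10 genes was called, a share below the 23.5% called among all tested genes. LIL3:2, a light-harvesting-like membrane protein known to anchor geranylgeranyl reductase, had 13983, 12892 and 16592 counts in the wild type and 23494, 24374 and 19191 counts in the mutant, with no overlap in CPM. Its mean rose from 320.1 ± 35.5 CPM in the wild type to 519.7 ± 69.2 CPM in the mutant (SD, n = 3 each), 0.70 on the log2 scale (edgeR adjusted p 0.00533). The geranylgeranyl reductase gene CHLP, the cyclase gene CRD1 and the chlorophyll synthase gene CHLG had log2 fold changes of 0.10, -0.13 and 0.18 and were not called (edgeR adjusted p 0.642, 0.414 and 0.367). CHLI2, the second CHLI gene, had a log2 fold change of 0.29 (edgeR adjusted p 0.108), near that of CHLI1.

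In the heme, siroheme and bilin branch 2 of 7 tested genes were called, both higher, or 28.6% against 23.5% of all tested genes. UPM1, which opens the siroheme branch, rose from 73.7 ± 6.53 CPM in the wild type to 117.6 ± 13.6 CPM in the mutant (SD, n = 3 each), 0.67 on the log2 scale (edgeR adjusted p 0.00354), and the ferrochelatase gene FC1 rose by 0.33 on the log2 scale (0.0382). HO1 and HY2, which make the phytochrome chromophore, had log2 fold changes of 0.19 and 0.08 and were not called (edgeR adjusted p 0.226 and 0.785). Among 10 genes of chlorophyll breakdown and conversion of chlorophyll b to a, 2 were called, both lower. That share is below the 23.5% called among all tested genes. NYC1, a chlorophyll b reductase, fell from 262.0 ± 1.63 CPM in the wild type to 204.8 ± 15.9 CPM in the mutant (SD, n = 3 each), -0.36 on the log2 scale (edgeR adjusted p 0.0222), and SGR1, which removes magnesium from chlorophyll, had a log2 fold change of -0.30 (0.0374). LIL3:2 and UPM1 kept their calls in all 6 fits without a library. The other 6 called genes each lost theirs in at least 1 of those fits, and all 6 lost it without wild-type replicate 1, without wild-type replicate 3 and without mutant replicate 1.

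**Figure D4:**
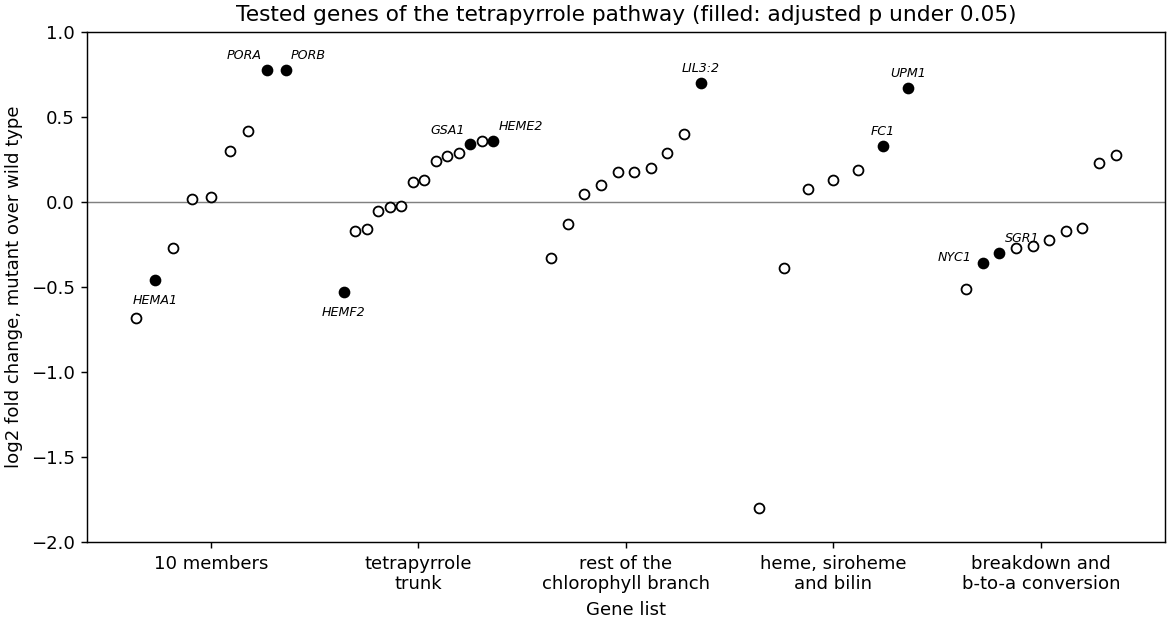
Log2 fold change, mutant over wild type, of every tested gene in the member set and in the 4 lists of other tetrapyrrole genes, ordered by value within a list, with filled points for an edgeR adjusted p under 0.05. Calls go both ways among the members (3 of 9) and in the trunk (3 of 14). In the chlorophyll list 1 of 10 genes is called and in the heme list 2 of 7, all higher. In the breakdown list 2 of 10 are called, both lower, and among all tested genes 23.5% are called. The lowest point is HO4 at -1.80, with 0 to 50 counts in any library.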

How the data were processed

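Polyadenylated RNA was sequenced from strand-specific DNBSEQ libraries, per the labels' protocols. Per the file headers, the authors deposited raw counts for each gene in each library, and a comparison table with a mean normalized count (a signal over all libraries), a log2 fold change, its standard error (a score here) and p-values. The submitters' processing notes name STAR 2.7.10b, featureCounts, Subread 2.0.3, DESeq2 1.38 and the build TAIR10. Strand setting and pair counting are not given in the sources used here, and 74.8% of count values from 1 to 20 were even, so counts may not be separate molecules.

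Counts were tested with edgeR 4.0.16 in R 4.3.3 (filterByExpr, TMM, glmQLFit with dispersions estimated first, glmQLFTest, Benjamini-Hochberg over 20791 genes). The SE was taken as |log2 fold change| over the square root of F. Alternatives were DESeq2 1.42.0, upper-quartile or RLE factors, other filters, a replicate block, each library left out, length offsets alone or with GC (splines with 4 degrees of freedom), halved counts, an adjusted p under 0.01 and, added after seeing the data, the newer quasi-likelihood method. The fit was tested on simulated data. Exonic lengths, overlaps and promoters came from RefSeq TAIR10.1. The text names all members, the BDH loci and every called gene of 4 pathway lists. Other genes named (neighbours, marker genes and pathway genes not called) were chosen after their values were seen. Members and lists were chosen with earlier results of these data known.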

Additional observations from a re-analysis of the deposited data

How the results depend on the processing

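PORB kept its call in each alternative at an adjusted p under 0.05, with log2 fold changes from 0.60 to 0.94, and PORA ranged from 0.57 to 0.96. The number of members called was 3 in most fits, 4 with no filter on low counts, 1 at an adjusted p under 0.01 (PORB, edgeR adjusted p 0.00862), and 1 to 4 when a library was left out. For the other pathway genes, 8 in the fit with all libraries, it was 12 with DESeq2, 11 with length and GC offsets, 10 with upper-quartile factors, 2 at an adjusted p under 0.01 and 2 to 9 when a library was left out. Over all genes 4882 were called, 1649 at an adjusted p under 0.01, and 1811 (without mutant replicate 1) to 5558 (without wild-type replicate 2) when a library was left out. Libraries sharing a replicate number were not paired by the labels, and their deviations from the group means correlated at 0.047, -0.281 and -0.168. With the replicate block 2090 genes, 2 members (PORA and PORB) and 2 other pathway genes were called, and HEMA1 had an edgeR adjusted p of 0.0853. CHLM and FLU, with log2 fold changes up to 0.08 (both without mutant replicate 3), changed sign: CHLM was -0.02 without wild-type replicate 2, without mutant replicate 2 and with length offsets, and FLU was -0.03 and -0.01 without those libraries, -0.09 with length offsets and -0.06 with length and GC offsets. The difference in POR shares (mutant minus wild type) moved by less than 1 wild-type SD in all alternatives. When a library was left out it ran from -0.411 to 0.356 percentage points for PORA, from -0.0291 to 0.775 for PORB and from -0.426 to -0.263 for PORC. The cause of these changes was not tested. With 3 libraries a group, permutation tests cannot reach 0.05.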
